A study of Mus musculus with 54 samples.

Results

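The intermediate filament genes Vim, Nes, Ina, Nefl, Nefm and Nefh, together with the microtubule gene Map1b, were followed by RNA sequencing across mouse stem cell lines with altered EZH2. These 7 genes were taken by name from a table of 55401 genes. Vim and Nefl were chosen by their differences in counts between undifferentiated variant and WT cells, which were already known, and the other members by their family. In undifferentiated cells, comparisons that rest on the WT libraries or on those of A677T, R679C, K634E and K563E are therefore given as a description, with no test, and so is the change with differentiation in these 5 lines. Among the lines A733T, het and parental, het against parental in both states and A733T against het in mESC are tested. So is the change with ATRA in each of these lines, and its difference between A733T and het and between het and parental cells. All 7 genes passed the filter on low counts in both states.

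EZH2 is the catalytic subunit of Polycomb repressive complex 2, which methylates histone H3 at repressed genes, and its variants cause Weaver syndrome, an overgrowth disorder that the series is about. Of the 8 lines analysed, A677T, R679C, K634E, K563E and A733T are Ezh2 heterozygotes with 1 allele deleted that express the named EZH2 variant. The WT line is the same heterozygote expressing wild-type EZH2, het is the heterozygote, and parental is the line from which it came. The sample descriptions label the parental libraries flfl. A677T, R679C, K634E and K563E are called the 4 variants, and A733T is kept apart as the growth restriction variant from general knowledge of the study, since the labels do not say which one it is. Each line was sequenced after a short treatment with all-trans retinoic acid without 2i and LIF (ATRA), and undifferentiated (mESC), with 3 libraries in each of 16 groups. How the EZH2 forms were introduced, from which promoter they are expressed and whether a line is 1 clone is not given in the sources used here, and Y728 was not analysed here.

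Intermediate filaments are built from families of coiled-coil proteins that are used in different cells and stages. Vimentin, encoded by Vim, is the filament protein of mesenchymal and many undifferentiated or cultured cells. Nestin, from Nes, marks neural stem and progenitor cells, where it assembles with vimentin. Neurons build neurofilaments from a light, a medium and a heavy subunit (Nefl, Nefm and Nefh), which are joined in the central nervous system by alpha-internexin, the product of Ina and an early filament protein of developing neurons. Map1b encodes a microtubule-associated protein that is abundant in growing axons. Retinoic acid is widely used to drive embryonic stem cells towards neural fates.

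Libraries held 15612700 to 31338825 counts in ATRA and 15361598 to 29614420 counts in mESC. The 8 listed stem cell markers, such as Pou5f1 and Nanog, summed to 515 to 888 CPM (TMM-normalised counts per 1e+06 counts) in ATRA libraries and 4066 to 5316 CPM in mESC libraries, and all 8 fell with ATRA in each of the 3 lines tested. Libraries also showed GC trends. Over genes, GC content and a library's distance from the mean of its state had a Spearman correlation of -0.75 to 0.57 in the 4 variants and -0.29 to 0.55 in WT after ATRA, and -0.72 to 0.11 in the 4 variants and 0.49 to 0.72 in WT undifferentiated. K634E replicate 3 in ATRA (-0.75) and A677T replicate 3 in mESC (-0.72) had the lowest values of their states. Without these libraries no call among the members was lost. The labels do not say that replicates are separate cultures, so p-values reflect only how far these samples spread, which may be technical.

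Sequence upstream of the transcription start is shown for genes that were high in the same lines or that changed with ATRA in the same direction in every line. RefSeq promoter windows (GRCm38.p6) were at hand for 4 members, Vim, Nes, Map1b and Ina. The 250 bases before each start were searched on both strands for a TATA box (TATAAA), for a GC box (GGGCGG) and for a CCAAT box (the letters CCAAT), and matches, which did not overlap, are in capitals. Of all 32851 windows of this length, 12.4% hold the TATA box, 32.7% the GC box and 33.9% the CCAAT box. For Vim the piece from 44 to 15 bases before the RefSeq start (chr2:13574267-13574296, plus strand) holds its single TATA box, 32 bases before that start. This piece lies inside the GENCODE span of Vim, which begins at 13573927.
Vim: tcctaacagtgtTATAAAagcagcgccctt
Map1b (chr13:99516603-99516852, minus strand) and Ina (chr19:47014431-47014680, plus strand) are shown in full.
Map1b: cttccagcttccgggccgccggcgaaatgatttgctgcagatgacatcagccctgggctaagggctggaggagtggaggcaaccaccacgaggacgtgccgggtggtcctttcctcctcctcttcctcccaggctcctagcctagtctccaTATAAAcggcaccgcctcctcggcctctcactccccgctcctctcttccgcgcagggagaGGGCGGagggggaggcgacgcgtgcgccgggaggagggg
Ina: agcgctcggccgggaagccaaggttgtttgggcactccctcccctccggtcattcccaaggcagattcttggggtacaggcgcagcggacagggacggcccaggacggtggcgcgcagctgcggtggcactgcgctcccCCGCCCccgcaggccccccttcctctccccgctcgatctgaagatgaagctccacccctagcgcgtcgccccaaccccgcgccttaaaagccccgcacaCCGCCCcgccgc
The Ina window had 25 CpG dinucleotides and the Map1b window 19, against 15 for Nes, 8 for Vim and a median of 6 over all windows. Ina and Nes each held 2 GC boxes, all of which read CCGCCC on the gene's strand. Map1b held 1 GC box, 39 bases before the start, and 1 TATA box, which at 99 bases lay further from the start than that of Vim. Vim held 2 CCAAT boxes besides its TATA box.

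The 7 genes span a wide range of levels. Per kilobase of exon, and averaged over the 16 groups, Vim stood highest at 41.8 CPM per kilobase, followed by Ina at 12.9, Map1b at 6.76, Nefh at 5.65, Nefl at 3.42 and Nes at 2.01. Nefm, the medium neurofilament subunit, was close to absent at 0.083 CPM per kilobase, with 0 to 34 counts in a library. The order was the same when the longest transcript was used as the length. On the per-kilobase scale the heavy subunit Nefh stood above the light subunit Nefl in 13 of the 16 groups, and Nefl above Nefh in A677T (6.17 against 4.65), K634E (6.20 against 5.97) and K563E (9.10 against 8.56) in mESC, while the medium subunit of the same polymer was at a few counts.

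**Figure D1:**
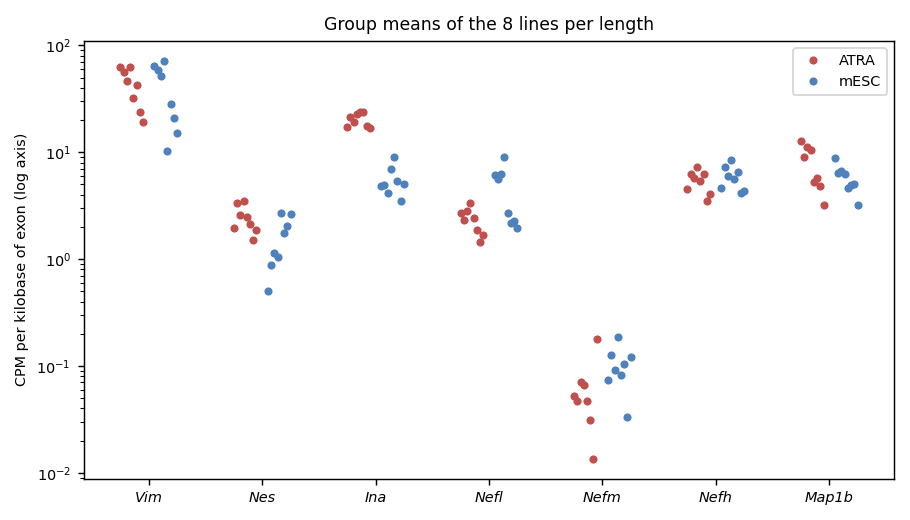
Mean level of each gene in CPM per kilobase of exon (log axis), with 1 point per line and state, ATRA left of mESC. Vim is highest at up to 72.1 CPM per kilobase, Nefm lies below 0.2, and Ina is the gene whose ATRA points all lie above its mESC points.

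Nefl (ENSMUSG00000022055.7) and Nefm (ENSMUSG00000022054.11) overlap on chromosome 14, where the span of Nefl lies inside that of Nefm on the other strand (68083863 to 68089095 on the plus strand and 68082590 to 68124846 on the minus strand, GRCm38). They share 1108 exon bases, which is 32.8% of the exon length of Nefl and 19.2% of that of Nefm. Ina shares 456 exon bases, 14.1% of its length, with Nt5c2 on the other strand. Whether counting used the strand is not given in the sources used here, so reads in these stretches are uncertain. Ina (ENSMUSG00000034336.3) lies on chromosome 19 from 47014698 to 47025327 on the plus strand. Vim (ENSMUSG00000026728.9) lies on chromosome 2 from 13573927 to 13582826 on the plus strand, Nes (ENSMUSG00000004891.16) on chromosome 3 from 87971078 to 87980451 on the plus strand, Nefh (ENSMUSG00000020396.8) on chromosome 11 from 4938754 to 4948064 on the minus strand, and Map1b (ENSMUSG00000052727.6) on chromosome 13 from 99421446 to 99516540 on the minus strand. None of these 4 shares an exon base with another annotated gene.

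After ATRA, 5 of the 7 genes differed between the mean of the 4 variants and WT, where 20.5% of the 17030 genes tested did. Vim, Nefl, Map1b and Nes were higher (background 8.43%) and Ina was lower (background 12.1%), by edgeR's quasi-likelihood test at a Benjamini-Hochberg adjusted p under 0.05 over all genes tested. Singly, A677T changed 5 members (19.4% of all genes), R679C 3 (10.3%), K634E 3 (15% of all genes) and K563E 4 (20.5%). Every one of these comparisons uses the same 3 WT libraries. Vim and Nefl were chosen because these lines differed from WT in mESC, so the counts of members are not independent of that choice. In bulk RNA, a change in the share of cells that express a gene and a change in RNA per cell cannot be told apart.

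**Figure D2:**
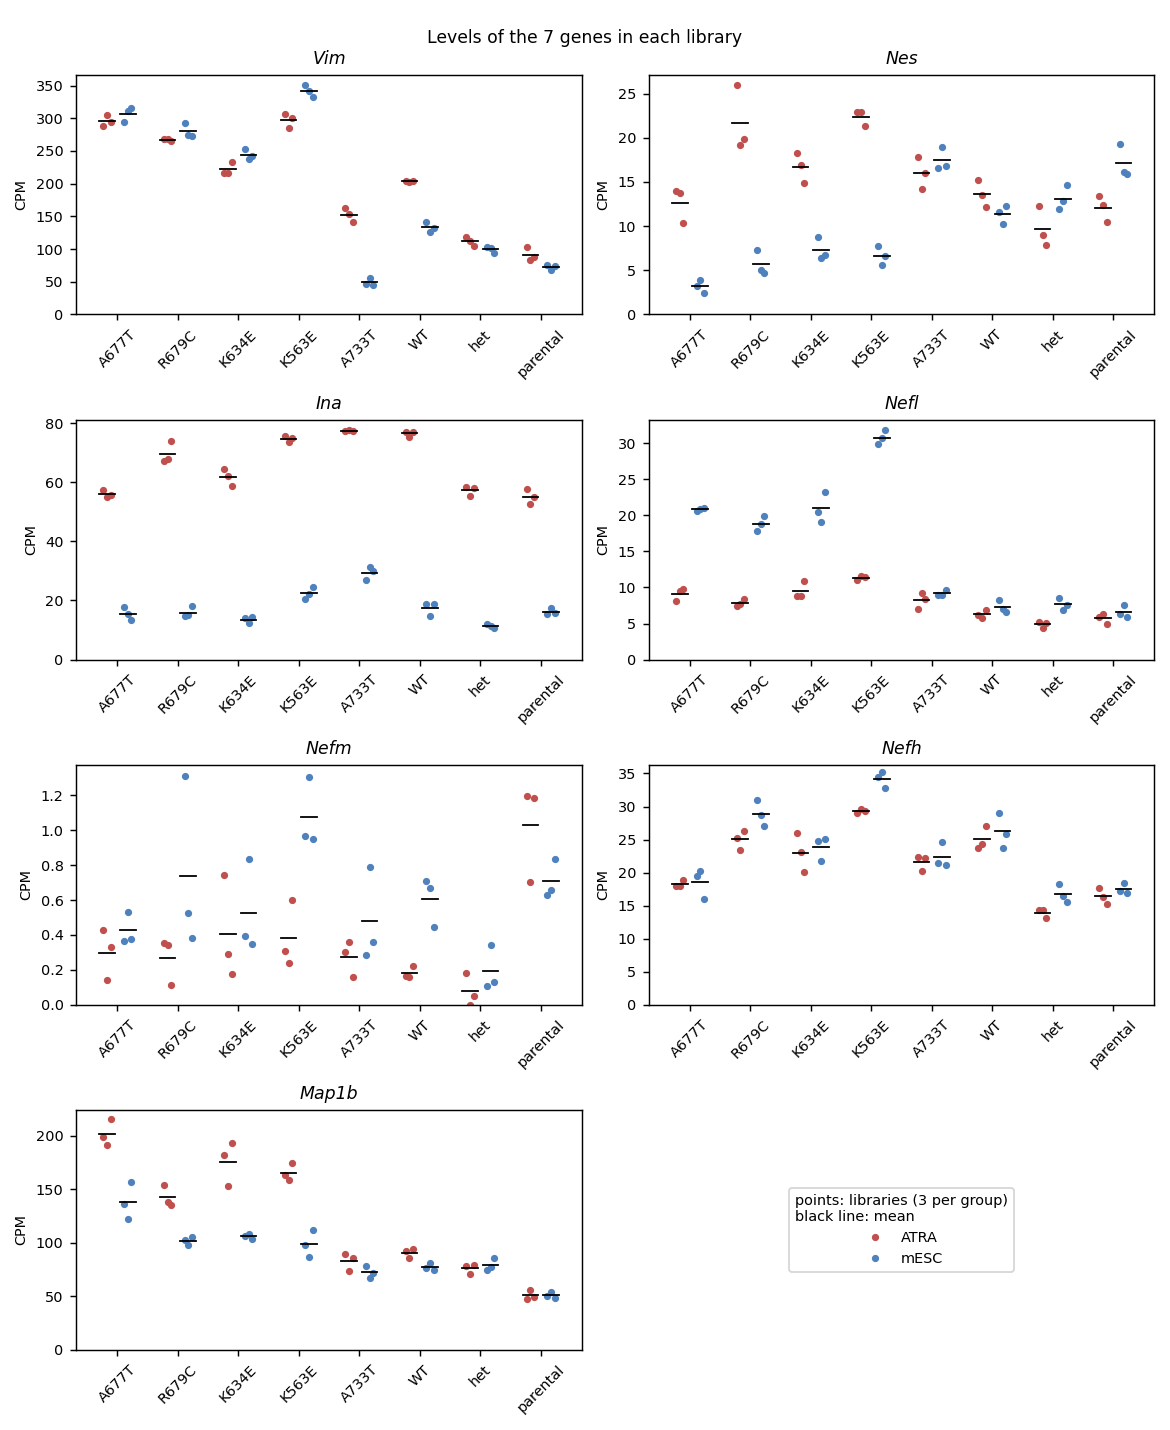
Level of each gene in CPM in every library, with ATRA left of mESC in each line, points for libraries and a black line for the mean of 3. Vim, Nefl and Map1b are higher in A677T, R679C, K634E and K563E than in WT in both states, and Vim in A733T is lowest of all lines in mESC.

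Vim kept the libraries of neighbouring lines apart in 6 of 7 pairs after ATRA and 7 of 7 in mESC, more than any other member. Vim was chosen by its difference in mESC, so its separation there follows in part from that choice. The share of all genes with libraries as far apart was not counted, here or for the other members below. After ATRA Vim stood at 288, 305 and 294 CPM in A677T, 268, 268 and 266 in R679C, 216, 217 and 232 in K634E, 306, 285 and 300 in K563E, 163, 154 and 142 in A733T, 205, 203 and 204 in WT, 118, 113 and 105 in het, and 104, 83.4 and 87.5 in parental cells. All 12 libraries of the 4 variants lay above the WT libraries, the A733T libraries lay between WT and het, and in the order of group means only K563E and A677T overlapped. The mean of the 4 variants was higher than WT by 0.40 on the log2 scale (SE 0.0552, edgeR adjusted p = 4.44e-06). Vim rose in A677T (0.53, adjusted p = 1.48e-06), K563E (0.54, adjusted p = 1.44e-06) and R679C (0.40, adjusted p = 0.000204), and K634E stood at 0.13 (adjusted p = 0.199).

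Undifferentiated, the chosen contrast for Vim, the spread between lines was wider still. Levels were 295, 312 and 315 CPM in A677T, 293, 274 and 272 in R679C, 253, 238 and 242 in K634E, 352, 341 and 333 in K563E, 46.5, 55.2 and 45.8 in A733T, 142, 126 and 132 in WT, 103, 102 and 94.7 in het, and 75, 68.6 and 73.5 in parental cells. No 2 neighbours overlapped in the order K563E, A677T, R679C, K634E, WT, het, parental, A733T. The 4 variants had a mean log2 difference of 1.16 from WT (SE 0.0548), in a comparison that calls 44.4% of all genes and that chose Vim, and single variants ran from 0.91 in K634E to 1.39 in K563E. A733T stood at -1.42 from WT (SE 0.0674), where 19.3% of all genes are called.

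The light subunit Nefl followed the variants in both states at a much lower level. After ATRA it was 8.06, 9.45 and 9.81 CPM in A677T, 7.49, 7.68 and 8.39 in R679C, 8.82, 8.86 and 10.8 in K634E, 11, 11.5 and 11.5 in K563E, 7.08, 9.17 and 8.41 in A733T, and 6.22, 5.7 and 6.89 in WT. All 12 libraries of the 4 variants again lay above every WT library, with a mean log2 difference of 0.58 (SE 0.103, edgeR adjusted p = 0.000136). Nefl rose in K563E (0.85, adjusted p = 1.5e-05), K634E (0.61, adjusted p = 0.00172) and A677T (0.54, adjusted p = 0.00298), and R679C stood at 0.33 (adjusted p = 0.105).

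In mESC, where Nefl was chosen, it was 20.6, 20.9 and 21 CPM in A677T, 17.8, 18.8 and 19.9 in R679C, 20.5, 19.1 and 23.3 in K634E, 29.8, 30.6 and 31.9 in K563E, 8.98, 8.98 and 9.63 in A733T, and 8.25, 7.06 and 6.59 in WT. The 4 variants stood at a mean log2 difference of 1.65 from WT (SE 0.093), and K563E alone at 2.11. Het had 8.6, 6.9 and 7.63 CPM and parental cells 6.37, 7.59 and 5.89 CPM, which overlapped WT. A733T lay just above WT and below all 12 libraries of the 4 variants.

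The medium subunit Nefm gave too few counts to follow. After ATRA its group means ran from 0.078 ± 0.095 CPM in het to 1.03 ± 0.281 CPM in parental cells (SD, n = 3 each), and the 4 variants stood at 0.85 from WT on the log2 scale with a 95% confidence interval from -0.22 to 1.93 (edgeR adjusted p = 0.274). The heavy subunit Nefh was 18.3 ± 0.538 CPM in A677T, 25 ± 1.44 in R679C, 23 ± 2.95 in K634E, 29.3 ± 0.343 in K563E and 25 ± 1.81 in WT after ATRA. The variants thus lay on both sides of WT. The mean difference of the 4 variants for Nefh was -0.09 (95% confidence interval -0.22 to 0.05, edgeR adjusted p = 0.41). A677T alone was lower than WT (-0.46, SE 0.0869, adjusted p = 0.000326), and K563E stood at 0.23 (adjusted p = 0.0579), a value called at 0.41 (adjusted p = 0.000962) with the GC trend of each library taken out. The K563E value was also called with the replicate block (0.23, adjusted p = 0.0375), by DESeq2 (0.24, adjusted p = 0.0384) and with its size factors (0.24, adjusted p = 0.0466). In mESC Nefh showed the same split, at -0.46 in A677T and 0.42 in K563E against WT, with a mean of 0.01 over the 4 variants, a value of 0.28 after the GC correction.

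Alpha-internexin moved the other way from Nefl after ATRA. Ina was 57.3, 55 and 55.7 CPM in A677T, 67.1, 68 and 73.8 in R679C, 64.6, 62.1 and 58.8 in K634E, 75.6, 73.6 and 74.8 in K563E, 77.2, 77.8 and 77.3 in A733T, and 77.1, 75.2 and 77.1 in WT. Of the 12 libraries of the 4 variants, 11 lay below every WT library. Their mean was lower than WT by a log2 difference of -0.23 (SE 0.0442, edgeR adjusted p = 0.000375), which was -0.15 (adjusted p = 0.0331) after the GC correction. Ina fell in A677T (-0.45, adjusted p = 1.27e-06) and K634E (-0.30, adjusted p = 0.000694), while R679C stood at -0.13 (adjusted p = 0.155) and K563E at -0.03 (adjusted p = 0.713). The K634E call was lost with the GC correction (-0.15, adjusted p = 0.149) and when only K634E and WT were fitted (adjusted p = 0.0519). In mESC the difference of the 4 variants for Ina was -0.04, and 0.16 after the GC correction.

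The mean difference of the 4 variants from WT for nestin had opposite signs in the ATRA and mESC states. After ATRA, Nes was 14, 13.7 and 10.3 CPM in A677T, 26, 19.2 and 19.8 in R679C, 18.3, 16.9 and 14.9 in K634E, 22.9, 23 and 21.3 in K563E, 17.8, 14.2 and 16 in A733T, and 15.2, 13.5 and 12.2 in WT. R679C and K563E lay above all WT libraries, and A677T and K634E overlapped WT. The mean of the 4 variants was higher by 0.40 (SE 0.116, edgeR adjusted p = 0.0152), a call lost without WT replicate 2 (0.39, adjusted p = 0.0785) or WT replicate 3 (0.32, adjusted p = 0.108). Nes rose in K563E (0.72, adjusted p = 0.000614) and R679C (0.67, adjusted p = 0.00212), and A677T stood at -0.10 (adjusted p = 0.7). In K634E it stood at 0.30 (adjusted p = 0.163), and was called after the GC correction (0.455, adjusted p = 0.0209) and with the replicate block (0.302, adjusted p = 0.0289).

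In mESC all 12 libraries of the 4 variants lay below every WT library for Nes. It was 3.25, 3.96 and 2.46 CPM in A677T, 7.35, 5 and 4.72 in R679C, 8.74, 6.36 and 6.76 in K634E, 7.69, 5.64 and 6.61 in K563E, 16.6, 19 and 16.8 in A733T, and 11.6, 10.2 and 12.2 in WT. The mean log2 difference of the 4 variants was -1.02 (SE 0.119), or -0.83 after the GC correction, and A677T stood lowest at -1.76. A733T lay above every WT library, at 0.65.

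The axonal microtubule gene Map1b had the largest difference between the 4 variants and WT after ATRA among the 5 members called. It was 199, 191 and 216 CPM in A677T, 154, 138 and 136 in R679C, 182, 153 and 193 in K634E, 163, 158 and 175 in K563E, 89.2, 73.6 and 85.7 in A733T, and 92.5, 85.9 and 94.2 in WT. The lowest library of the 4 variants thus lay well above the highest WT library, and A733T overlapped WT. Map1b was higher in the mean of the 4 variants by 0.91 (SE 0.071, edgeR adjusted p = 2.9e-10) and rose in each of them, by 1.15 in A677T (adjusted p = 1.26e-10), 0.96 in K634E (adjusted p = 8.31e-09), 0.87 in K563E (adjusted p = 2.79e-08) and 0.66 in R679C (adjusted p = 4.28e-06).

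In mESC Map1b was 136.5, 122.5 and 157.0 CPM in A677T, 102.4, 97.7 and 105.2 in R679C, 106.2, 108.4 and 103.5 in K634E, 98.3, 87 and 111.6 in K563E, and 76.5, 80.9 and 75.1 in WT. All 12 libraries of the 4 variants lay above the WT libraries, by a mean log2 difference of 0.55 (SE 0.0719). A677T was highest in both states.

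**Figure D3:**
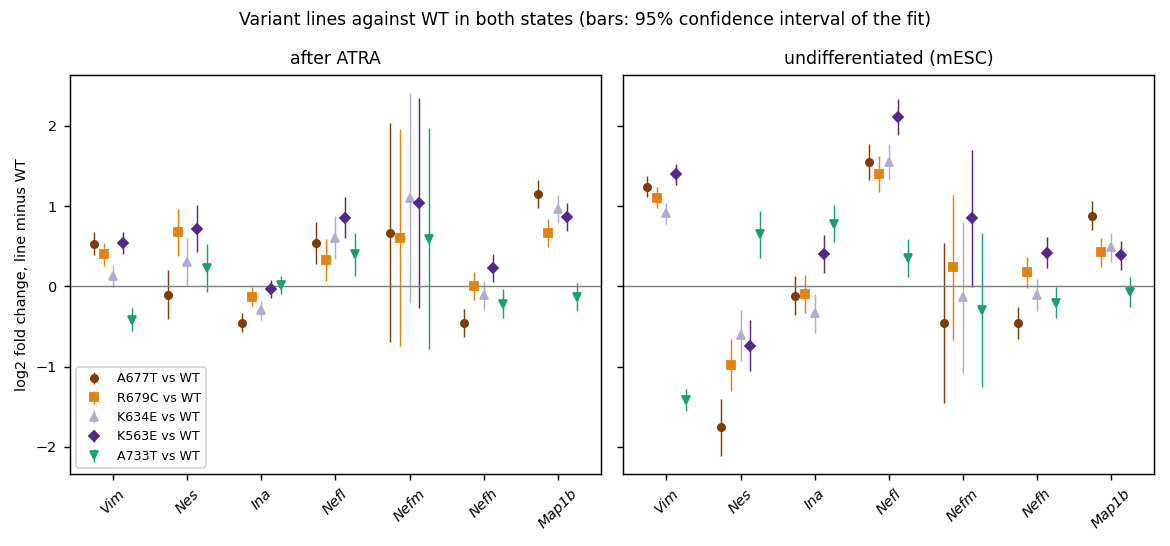
Log2 fold change of each variant line against WT for the 7 genes, after ATRA (left) and undifferentiated (right), with bars for the 95% confidence interval of the fit. Map1b lies above 0 in all 4 of A677T, R679C, K634E and K563E in both states, Nes lies below 0 in these 4 lines in mESC and above 0 in 3 of them after ATRA, and Vim in A733T lies below 0 in both states.

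The 4 variants also differed from each other. After ATRA, a test among A677T, R679C, K634E and K563E called 6 of the 7 genes, where 23.7% of all genes were called, and Nefm was not called (edgeR adjusted p = 0.839). The smallest adjusted p-values were those of Nefh (2.23e-05) and Ina (2.71e-05), with K563E highest and A677T lowest for both. Vim (0.000206) was lowest in K634E, Nes (0.000456) was lowest in A677T, and Map1b (0.000935) was highest in A677T and lowest in R679C. The call for Nefl (0.018) was lost without R679C replicate 2 (0.0518). This comparison was added after the data had been seen.

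A733T stood apart from the 4 variants. After ATRA, 2 members differed between A733T and WT, where 17.7% of all genes did, and 3 after the GC correction, which added Nefh (-0.29, edgeR adjusted p = 0.0191, against -0.22 and 0.0832 without it). Vim was lower by a log2 difference of -0.42 (SE 0.0686, edgeR adjusted p = 9.57e-05) and Nefl was higher by 0.40 (SE 0.129, adjusted p = 0.0309). The Nefl call was lost without A733T replicate 2 (0.31, adjusted p = 0.178), A733T replicate 3 (0.36, adjusted p = 0.108), WT replicate 1 (0.39, adjusted p = 0.0781) or WT replicate 2 (0.33, adjusted p = 0.134), and with no filter on low counts (adjusted p = 0.106). Set against the mean of the 4 variants after ATRA, in a comparison also added after the data had been seen that called 48.5% of all genes, 3 members differed. Vim was lower in A733T by -0.82 (SE 0.0572, edgeR adjusted p = 3.47e-12), Map1b was lower by -1.04 (SE 0.0721, adjusted p = 2.72e-12), and Ina was higher by 0.25 (SE 0.0444, adjusted p = 4.07e-05), a value of 0.12 (adjusted p = 0.056) after the GC correction. Nes (-0.30, adjusted p = 0.0195) and Nefh (-0.32, adjusted p = 0.000654) were called after that correction only.

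Against the het line in mESC, a comparison with no library that chose the members, A733T changed 4 genes where 12.9% of all genes changed. Vim was 46.5, 55.2 and 45.8 CPM in A733T and 103, 102 and 94.7 CPM in het, lower by -1.0 on the log2 scale (SE 0.0673, edgeR adjusted p = 3.41e-11). Ina was 26.9, 31.4 and 30 CPM in A733T and 11.9, 11.5 and 10.8 CPM in het, higher by 1.39 (SE 0.117, adjusted p = 3.06e-09). Groups did not overlap for either gene, and the share of all genes that separate in this way was not counted. Nefh was higher by 0.44 (SE 0.0978, adjusted p = 0.00247), and Nes by 0.44 (SE 0.141, adjusted p = 0.0407). The Nes call was lost without any 1 of 5 of the 6 libraries compared, with adjusted p from 0.0641 without A733T replicate 1 to 0.147 without A733T replicate 2.

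Between the WT line and the het line from which it was made, 5 members differed after ATRA where 16.4% of all genes did. Vim was 205, 203 and 204 CPM in WT and 118, 113 and 105 CPM in het, higher by 0.87 (SE 0.0689, edgeR adjusted p = 8.05e-10). Nefh was 23.7, 24.3 and 27.1 CPM in WT and 14.3, 14.4 and 13.1 CPM in het, higher by 0.85 (SE 0.0872, adjusted p = 6.63e-08). Ina was 77.1, 75.2 and 77.1 CPM in WT and 58.3, 55.4 and 58 CPM in het, higher by 0.42 (SE 0.0567, adjusted p = 5.84e-06). All 3 genes were without overlap, and the share of all genes that separate in this way was not counted. Nefl stood at 0.35 (adjusted p = 0.0652) and was called after the GC correction (0.37, adjusted p = 0.035). Nes (0.47, adjusted p = 0.0276) and Map1b (0.25, adjusted p = 0.0457) were also called. The Nes call was lost without WT replicate 1 (adjusted p = 0.128), WT replicate 2 (0.0575), het replicate 2 (0.115) or het replicate 3 (0.163). Map1b lost its call without WT replicate 1 (0.124), WT replicate 3 (0.164) or any 1 het library (0.0713, 0.2 and 0.0702 for replicates 1, 2 and 3).

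Deletion of 1 Ezh2 allele, the difference between het and parental cells, was accompanied by higher Vim and Map1b in both states. After ATRA 3 members differed where 6.25% of all genes did. Map1b was 78.9, 71.3 and 79.7 CPM in het and 48, 55.8 and 49.6 CPM in parental cells, higher by 0.58 (SE 0.087, edgeR adjusted p = 4.54e-05) with no overlap. Vim was higher in het by 0.28 (SE 0.0694, adjusted p = 0.0101), which was not called without het replicate 1 (0.25, adjusted p = 0.0797), parental replicate 2 (0.23, adjusted p = 0.0917) or parental replicate 3 (0.25, adjusted p = 0.0671). Nefm had 6, 0 and 1 counts in het and 34, 14 and 24 counts in parental libraries, a log2 difference of -3.44 (SE 0.583, adjusted p = 0.000223). The value was -5.15 without het replicate 1 and -2.94 without het replicate 2, and remained called.

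In mESC, 3 members differed between het and parental cells where 3.44% of all genes did. Vim was 103, 102 and 94.7 CPM in het and 75, 68.6 and 73.5 CPM in parental cells (0.46, SE 0.0661, edgeR adjusted p = 5.9e-05). Map1b was 74.7, 77.6 and 85.5 CPM in het and 50.4, 54 and 48.7 CPM in parental cells (0.63, SE 0.0902, adjusted p = 5.74e-05). Neither gene overlapped between the lines, and the share of all genes without overlap was not counted. Ina was lower in het by a log2 difference of -0.51 (SE 0.121, adjusted p = 0.0127), which was not called without het replicate 3 (-0.47, adjusted p = 0.0831) or parental replicate 2 (-0.45, adjusted p = 0.081). Nefm had 2, 7 and 3 counts in het and 13, 10 and 15 counts in parental libraries (-1.84, adjusted p = 0.0574), and Nes stood at -0.39 (adjusted p = 0.168). After the GC correction, Nefm (adjusted p = 0.0317) and Nes (adjusted p = 0.0349) were called as well. Nefm was also called by DESeq2 (adjusted p = 0.0478), with the replicate block (0.0371), with no filter (0.0319) and when only these groups were fitted (0.0295), and so was Nes in the last of these (0.0292).

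Ina was higher after ATRA than in mESC in all 8 lines, and its difference exceeded that of every other member in 5 of them. Vim had the larger rise in A733T, and Nes the larger difference in A677T and K563E. In the lines where the change with ATRA was tested, Ina was 77.2, 77.8 and 77.3 CPM after ATRA and 26.9, 31.4 and 30 CPM in mESC in A733T, a rise of 1.40 on the log2 scale (SE 0.0826, edgeR adjusted p = 1.98e-19). In het it was 58.3, 55.4 and 58 CPM after ATRA and 11.9, 11.5 and 10.8 CPM in mESC, a rise of 2.33 (SE 0.0893, adjusted p = 1.48e-26). In parental cells it was 57.8, 52.5 and 54.9 CPM after ATRA and 15.3, 17.6 and 15.8 CPM in mESC, a rise of 1.77 (SE 0.0873, adjusted p = 2.92e-22). ATRA and mESC libraries were far apart in each line. As a description, the difference was 1.73 to 2.20 in the 4 variants and 2.13 in WT.

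Of the 7 genes, 2 changed with ATRA in A733T (55.8% of all genes), 5 in het (56.8%) and 3 in parental cells (55.2% of all genes), so the members' share was below that of all genes in A733T and parental cells. In A733T Map1b stood at 0.19 (edgeR adjusted p = 0.0678). Apart from leaving libraries out, it was called under 6 alternatives, at 0.23 by DESeq2 (adjusted p = 0.0263) and 0.21 after the GC correction (adjusted p = 0.0261) among them. It was also called by edgeR without A733T replicate 2 in ATRA (adjusted p = 0.0204) or A733T replicate 1 in mESC (0.041). The same held without K634E replicate 3 in ATRA and A677T replicate 3 in mESC (0.0359). Vim rose in all 3 lines, by 1.64 in A733T (SE 0.0693, edgeR adjusted p = 7.48e-25), 0.34 in parental cells (SE 0.0678, adjusted p = 3.33e-05) and 0.17 in het (SE 0.0665, adjusted p = 0.0308). The het call was lost without het replicate 1 (adjusted p = 0.147) or 2 (0.0615) in ATRA, without het replicate 3 in mESC (0.218), and with no filter on low counts (0.1). Nes fell in parental cells (-0.50, adjusted p = 0.0048) and het (-0.42, adjusted p = 0.0183), and the het call was lost without het replicate 2 (0.0761) or 3 (0.137) in ATRA or replicate 3 in mESC (0.0916). Nefl (-0.65, adjusted p = 8.19e-06) and Nefh (-0.26, adjusted p = 0.016) were lower after ATRA in het. The Nefh value was -0.17 (adjusted p = 0.116) after the GC correction, and the call was also lost without het replicate 3 in ATRA (0.0731) or replicate 1 in mESC (0.0886) and with no filter on low counts (0.072).

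In the 4 variants and WT the change with ATRA is a description. Nefl was lower after ATRA by -1.14 in K634E to -1.44 in K563E on the log2 scale, and stood at -0.22 in WT. Nes was higher after ATRA by 1.20 in K634E to 1.96 in A677T, and stood at 0.26 in WT. Map1b was higher by 0.49 in R679C to 0.74 in K563E, and stood at 0.23 in WT. Vim differed by -0.06 in A677T to -0.20 in K563E, and by 0.61 in WT. In the 4 variants Vim was thus at nearly the same high level before and after ATRA, while Nefl stood lower and Nes higher after ATRA than before.

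**Figure D4:**
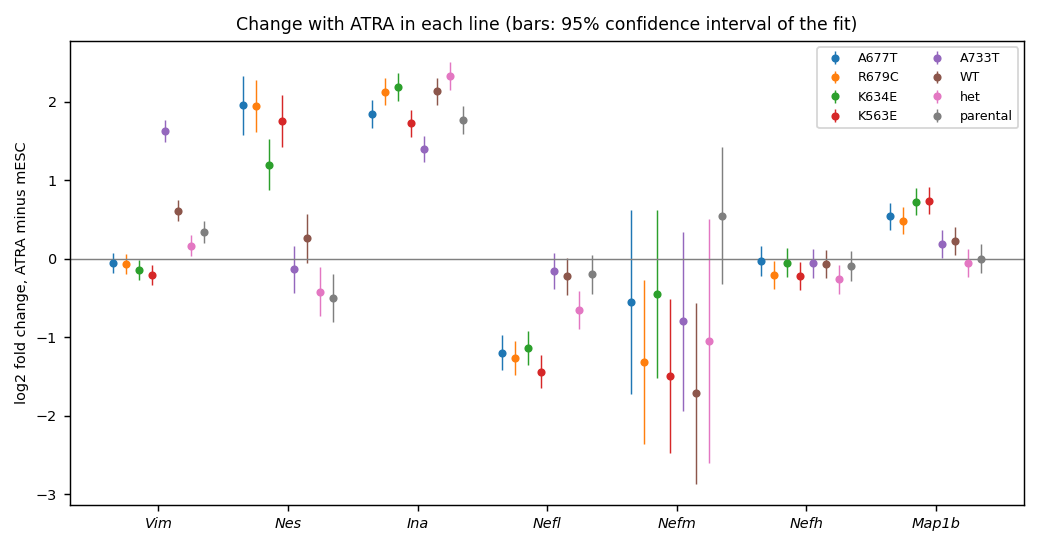
Log2 fold change of ATRA over mESC for each gene, with 1 point per line and bars for the 95% confidence interval of the fit. Ina lies between 1.40 and 2.33 in every line, and A733T alone has Vim at 1.64, against -0.20 to 0.61 in the other 7 lines.

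Whether the change with ATRA differs between lines was tested for A733T against het and for het against parental cells. Vim changed more in A733T than in het by 1.47 (SE 0.0955, edgeR adjusted p = 3.94e-15), and Ina less by -0.94 (SE 0.12, adjusted p = 5.47e-07), which makes 2 of 7 genes where 3.4% of all genes were called. Between het and parental cells 1 member differed, where 0.73% of all genes did. Ina changed more in het by 0.56 (SE 0.124, adjusted p = 0.0121), which was not called without het replicate 3 in mESC (0.52, adjusted p = 0.0594) or parental replicate 2 in mESC (0.52, adjusted p = 0.0527).

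Other genes of the filament and neuronal cytoskeleton, 36 in a list chosen with earlier results known, were called in both directions. Between the 4 variants and WT after ATRA, 5 of the 36 were higher and 3 were lower, where 8.43% of all genes were higher and 12.1% lower, with a median log2 difference of -0.02 against 0.00 for all genes tested. The higher genes were led by Trim2, a ubiquitin ligase that binds the neurofilament light subunit (0.68, SE 0.0937, edgeR adjusted p = 4.71e-06), Gap43, a growth cone protein (0.56, SE 0.079, adjusted p = 6.24e-06), and Map1a, a relative of Map1b (0.44, SE 0.111, adjusted p = 0.00475). The lower genes were Des, the muscle filament desmin (-0.81, SE 0.107, adjusted p = 2.64e-06), the nuclear lamin Lmna (-0.35, SE 0.104, adjusted p = 0.0176) and Mapt, which encodes tau (-0.53, SE 0.16, adjusted p = 0.0183). In mESC, as a description, 9 of 33 listed genes that passed the filter were above 0 and 24 below. Their median was -0.18, against -0.005 for all genes that passed the filter.

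A733T differed from WT in more genes of that list after ATRA, with 13 of 36 higher and 2 lower, where 17.7% of all genes changed in either direction, and a median of 0.22 against 0.02 for all genes. The simple epithelial keratins Krt8 (1.02, SE 0.0967, edgeR adjusted p = 2.15e-08) and Krt18 (0.98, SE 0.124, adjusted p = 2.82e-06) and the peripheral neuron filament Prph (0.87, SE 0.0998, adjusted p = 6.34e-07) led the higher genes. The 2 lower genes were Map1s (-0.23, adjusted p = 0.0277) and the nuclear lamin Lmnb1 (-0.17, adjusted p = 0.0287).

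Between het and parental cells after ATRA, 2 of the 36 were higher in het and 6 lower, where 6.25% of all genes changed. The higher ones were the tubulin gene Tuba1a (0.35, edgeR adjusted p = 0.00732) and Trim2 (0.48, adjusted p = 0.0239). Of the 6 lower genes, Mapt (-1.21, adjusted p = 3.64e-05), Prph (-0.63, adjusted p = 0.000105) and Lmna (-0.68, adjusted p = 0.000702) had the smallest adjusted p-values. Between WT and het after ATRA, where 16.4% of all genes changed, Gap43 (0.90, adjusted p = 3.86e-07), Trim2 (0.78, adjusted p = 4e-05) and the microtubule stabiliser Map6 (0.45, adjusted p = 0.00156) led the 4 higher genes, and Map4 (-0.18, adjusted p = 0.0207) and Tubb3 (-0.34, adjusted p = 0.0341) were the 2 lower ones.

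Markers of other cell types were read beside these values, and their part in the members' differences was not tested. Vim is also a fibroblast gene, and the 9 fibroblast markers summed to 9.43 to 20.6 CPM in the 4 variants, 18.2 to 21.8 CPM in A733T and 14.1 to 15.2 CPM in WT after ATRA. Of the 5 that passed the filter, A677T singly had 0 higher and 2 lower than WT (19.4% of all genes called). K563E had 2 higher and 0 lower (20.5%), and R679C (10.3%) and K634E (15%) had 0 in either direction. In the mean of the 4 variants, 0 were higher and 2 lower than in WT. Over all genes, 8.43% were higher and 12.1% lower. In mESC the fibroblast sum was 0.98 to 3.63 CPM in the 4 variants, 6.9 to 7.74 CPM in A733T and 3.67 to 3.8 CPM in WT, and Postn was at 0 in all 8 mESC groups. The 9 neuron markers summed to 83.8 to 101.5 CPM in the 4 variants, 136 to 146 CPM in A733T and 103 to 104 CPM in WT after ATRA. Where 8.43% of all genes were higher and 12.1% lower, 0 of these 9 markers were higher and 2 lower in the 4 variants. They summed to 401 to 488 CPM in the 4 variants and 373 to 394 CPM in WT in mESC, nearly all of it from Stmn2 and Tubb3, while Dcx, which marks newborn neurons, was at most 0.183 CPM in any mESC group mean.

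The 8 neural progenitor markers summed to 225 to 294 CPM in the 4 variants, 217 to 229 CPM in A733T and 224 to 232 CPM in WT after ATRA. Of the 6 that passed the filter, 2 were higher and 0 lower in the 4 variants than in WT. Over all genes, 8.43% were higher and 12.1% lower. The 8 endoderm markers, such as Gata6 and Sox17, summed to 166 to 207 CPM in the 4 variants, 374 to 407 CPM in A733T and 356 to 402 CPM in WT after ATRA. Of these, 7 of 8 were lower in the 4 variants than in WT, where 12.1% of all genes were lower.

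The members did not follow 1 pattern over the 16 group means. As a description over these means, which share libraries, lines and depth, Vim on the log2 CPM scale had a Pearson correlation of 0.78 with Map1b, 0.62 with Nefl and 0.53 with Nefh, but 0.13 with Ina and -0.37 with Nes. Nefl and Nes had a correlation of -0.65. Among 12153 other genes ranked by the same measure, those most like Vim were Gorasp2, a Golgi stacking protein (0.96), Nme1, a nucleoside diphosphate kinase (0.95), and Pus7, a pseudouridine synthase (0.95). Those most like Nefl were Ctnnal1, a relative of alpha-catenin (0.97), the pseudogene Rpl31-ps8 (0.95), whose reads can come from near-identical copies, and Orc4, a subunit of the origin recognition complex (0.95).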

How the data were processed

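Reads from poly(A)-selected RNA primed with random hexamers were processed by the authors, who deposited 1 table of raw counts per gene, without normalisation. The submitters' processing notes name the mm10 build, DESeq2 1.38.3, featureCounts 1.6.4, STAR 2.7.3a and cutadapt 3.2 without a role. Not given in the sources used here are the strand setting, the handling of multi-mapping reads and the annotation release. Columns were matched to labels for 48 libraries, and 6 columns that match no label were not used. Symbols, positions and exon lengths came from GENCODE M21, which held 55141 of the 55401 identifiers.

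The test was edgeR 4.0.16 in R 4.3.3 (filterByExpr, TMM, robust quasi-likelihood), with 1 mean per line on the 24 libraries of a state (16 residual degrees of freedom), or on all 48 libraries (32) where states were compared. In all, 16 comparisons were tested and 14 described, with Benjamini-Hochberg adjustment over all genes tested, which were 17030 in ATRA, 15830 in mESC and 17683 in both. Log2 fold changes are the fitted values, and CPM are TMM-normalised over the 48 libraries. Tests were run on counts simulated without GC or replicate trends, so this check cannot show how such trends affect the calls. It covered the 4 variants and A677T against WT after ATRA, and ATRA in parental cells. Of simulated 1.5-fold changes 74% to 84% were called, and of 2-fold changes 88% to 95%, with 6 to 11 unchanged genes called. Alternatives were DESeq2 1.42.0, its size factors, no filter, only the compared groups, a GC correction per library, the replicate number as a block, and leaving out each library. The members, gene lists and comparisons were chosen with earlier results of these data known. Named genes outside the members are the 3 most like Vim and Nefl over the 16 group means, and, per direction, the 3 genes of the cytoskeleton list with the smallest adjusted p. Same-numbered libraries were read as paired only where all 3 pairs had a correlation of deviations over 0.1. That held for R679C against WT after ATRA (0.193, 0.189 and 0.312). The main test used no replicate block there or elsewhere, and the block was an alternative only. Over all 36 pairs the correlation ran from -0.05 to 0.312.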

Additional observations from a re-analysis of the deposited data

Results flagged for a closer look

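In 3 results the change with ATRA differed between lines by a test of the difference itself, with edgeR's quasi-likelihood test on all 48 libraries. Vim changed by 1.47 more on the log2 scale in A733T than in het (adjusted p = 3.94e-15), with all 3 A733T libraries higher after ATRA than in mESC. The value lay between 1.41 and 1.57 over the alternatives and was called in each. Ina changed by -0.94, that is less, in A733T than in het (adjusted p = 5.47e-07), with values from -0.99 to -0.88 over the alternatives, all called. Ina changed by 0.56 more in het than in parental cells (adjusted p = 0.0121), and this call was lost without het replicate 3 (0.52, adjusted p = 0.0594) or parental replicate 2 (0.52, adjusted p = 0.0527) in mESC. In the first difference for Ina, A733T stood above het in both states. The levels were 29.4 CPM in A733T and 11.4 CPM in het undifferentiated, and 77.4 CPM and 57.3 CPM after ATRA. On the log2 scale the gap was wider undifferentiated, where it was 1.39, than after ATRA, so the smaller rise in A733T rests on its higher undifferentiated level.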

How the results depend on the processing

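The number of members called moved with these settings. For A733T against WT after ATRA it was 2, 1 with no filter on low counts, and 3 under the GC correction with or without the block. For A733T against the 4 variants after ATRA it was 3, 4 under the GC correction, and 5 when the block was added to it. For ATRA against mESC in het it was 5, and 3 with no filter. For het against parental cells in mESC it was 3, and 5 under the GC correction, under that correction joined with the replicate block, and when only these groups were fitted. For WT against het after ATRA it was 5, and 6 under the GC correction with or without the block, or without the 2 libraries that stand apart, a setting chosen after seeing the data. For ATRA against mESC in A733T it was 2, and 3 under the GC correction, the block, both, DESeq2, its size factors, or with only the compared groups. Leaving out 1 library in turn gave 1 to 2 calls for A733T against WT, 3 to 4 for WT against het, 3 to 5 for ATRA against mESC in het, and 0 to 1 for the difference between het and parental cells in the change with ATRA. The cause was not tested. Calls by DESeq2's Wald test, with DESeq2 size factors or with no filter kept the direction of every value tested.

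Values that changed sign were not called under any setting that turned them. Nefh in the 4 variants against WT after ATRA turned to 0.025 under the GC correction and to 0.028 when the block was added. Those 2 settings also turned Ina to -0.028 and -0.026 in A733T against WT and to 0.104 and 0.105 in K563E against WT, and Nefh to 0.084 and 0.089 in K634E and -0.029 and -0.028 in R679C. Nefh in R679C also turned to -0.009 when only the compared groups were fitted, and to -0.005 without the 2 libraries that stand apart. Leaving out 1 library in turn gave values on both sides of 0, from -0.042 to 0.066 for Nefh in R679C against WT, from -0.178 to 0.025 for Nes in A677T against WT and from -0.005 to 0.026 for Ina in A733T against WT. For the change with ATRA they ran from -0.106 to 0.009 for Nefh in A733T, from -0.104 to 0.008 for Map1b in het and from -0.071 to 0.035 for Map1b in parental cells. For the difference in that change they ran from -0.441 to 1.942 for Nefm in A733T against het, and in het against parental cells from -0.125 to 0.193 for Nes and from -0.099 to 0.021 for Map1b.

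The GC correction raised the genes called in het against parental cells to 987 from 544 in mESC and to 1766 from 1064 after ATRA, and after ATRA to 4579 from 3014 in A733T against WT, to 4217 from 2789 in WT against het and to 2830 from 1758 in R679C against WT. It lowered them to 2457 from 2558 in K634E against WT. For differences in the change with ATRA the counts were 1059 against 602 for A733T and het, and 252 against 129 for het and parental cells. Same-numbered libraries deviated together in all 3 pairs only for R679C against WT after ATRA. The replicate block called the same number of members there, 3, and moved the genes called to 2559 from 1758. After ATRA, deviations of replicate 3 and WT replicate 3 also had a correlation over 0.1 in A677T (0.189), K634E (0.283), K563E (0.199) and A733T (0.151). The other comparisons did not meet the rule for all 3 pairs, or were not checked for it. There the block raised the genes called to 3910 from 2558 for K634E against WT and to 6462 from 4036 among the 4 variants, lost no member's call, and gained Nes in K634E against WT (4 members called, against 3), Nefh in K563E against WT (5 against 4), Map1b for ATRA in A733T (3 against 2) and Nefm in het against parental cells in mESC (4 against 3). With the GC correction and the block together, Ina in R679C against WT (-0.15, edgeR adjusted p = 0.0318) and Nefl in the difference of A733T and het in the change with ATRA (0.498, edgeR adjusted p = 0.0489) were called as well. Nefm stayed near the floor of detection in all lines, so its fold changes carry wide errors.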
